A study of Mus musculus with 4 samples.

Results

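The Dppa genes (developmental pluripotency associated) are named for their expression in pluripotent cells and early embryos, and 4 of them, Dppa2, Dppa4, Dppa3 and Dppa5a, were taken by symbol from a table of raw read counts with 55418 genes. All 4 passed the filter on low counts, which left 18444 genes for testing. Dppa4, Dppa3 and Dppa5a were downregulated in Pim3-/- ESCs, by 2.33-fold, 5.44-fold and 1.95-fold against WT ESCs. Dppa2, the partner of Dppa4, did not pass the test, with a log2 fold change of -0.34 (standard error 0.25) after TMM scaling and 0.11 with library totals. Of all tested genes, 16.2% were downregulated and 17.6% were upregulated.

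The 4 genes share a name, while among them only Dppa2 and Dppa4 are related in sequence. DPPA2 and DPPA4 are a pair of SAP-domain proteins that bind chromatin together, mostly at CpG-rich promoters, and are known as activators of Dux, of its targets in 2C-like cells (the rare cells of ESC cultures that resemble the 2-cell embryo) and of the repeats MuERVL and young LINE-1. DPPA3, also called Stella or PGC7, is a maternal factor that shields the maternal genome of the zygote from TET3 and keeps UHRF1, the recruiter of the maintenance DNA methyltransferase, away from chromatin. DPPA5A is a KH-domain protein that binds RNA and is a long-used marker of undifferentiated ESCs.

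The study asked how the transcriptome of ESCs changes without Pim3, which encodes a serine/threonine kinase. RNA-seq was made of 2 WT libraries and 2 Pim3-/- libraries of the mouse ESC line E14 (strain given as 12910la), all grown on gelatin in serum with LIF, the cytokine that holds ESCs in self-renewal. Pim3-/- cells carried a CRISPR/Cas9 knockout and came from a pair of lines, each of which is 1 clone and 1 library here, so clone and library cannot be told apart. The sources used here do not say which replicate number is which clone, and p-values measure only the spread between these libraries, which may in part be technical.

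The gene table held 22029427 to 25668307 counts per library. TMM factors were 0.828 and 0.883 for the WT libraries against 1.17 for both Pim3-/- libraries, and the median log2 fold change of all tested genes was 0.07 with these factors and 0.52 with library totals. Pim3 itself had 4392 and 4953 counts in WT ESCs and 4970 and 4804 in Pim3-/- ESCs, with a log2 fold change of -0.27 (adjusted p = 0.251, edgeR, Benjamini-Hochberg) and 0.19 with library totals. The knockout rests on small edits within exons, so a count over the whole gene is no check of these labels. Over the whole table, 3246 genes were upregulated and 2987 downregulated, which became 402 and 373 without WT replicate 1, 585 and 1061 without WT replicate 2, 5393 and 5255 without Pim3-/- replicate 1 and 4883 and 4846 without Pim3-/- replicate 2. The ESC markers Pou5f1, Sox2, Nanog, Zfp42, Esrrb, Klf4, Tdgf1, Utf1 and Lin28a each had at least 1204 counts in every library. The level of a gene is given below as CPM, counts per 1000000 counts of the library after TMM scaling, and a gene was called upregulated or downregulated at an adjusted p under 0.05 by the quasi-likelihood test of edgeR.

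Dppa4 (ENSMUSG00000058550, GRCm38 chromosome 16, 48283733 to 48294237, plus strand) had 4765 and 5402 counts in WT ESCs and 3044 and 2452 in Pim3-/- ESCs. Its level was 249 and 238 CPM in the WT libraries and 114 and 95.01 CPM in the Pim3-/- libraries. Both Pim3-/- libraries were below both WT libraries, and within each group the libraries were close, at 243 ± 7.24 CPM (SD, n = 2) and 104.5 ± 13.4 CPM (SD, n = 2). The log2 fold change was -1.22 (standard error 0.18), with an adjusted p of 0.00531 (edgeR, Benjamini-Hochberg). With library totals it was -0.77. The call held in 9 of 10 alternative settings and missed the threshold without WT replicate 1, at -1.24 and an adjusted p of 0.0503 (1.5e-16 to 0.0503 over the alternatives).

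Dppa2 (ENSMUSG00000072419, chromosome 16, 48303908 to 48319723, plus strand) lies next to Dppa4 and did not follow it in both clones. Its level was 122 and 125 CPM in WT ESCs, 122 CPM in Pim3-/- replicate 1 and 72.5 CPM in Pim3-/- replicate 2, from 2336, 2827, 3268 and 1871 counts. After TMM scaling, replicate 1 of the Pim3-/- ESCs thus stood between the WT libraries, while replicate 2 was below all others. By library totals replicate 1 was above both WT libraries, with more counts of Dppa2 from a smaller total (22892949 against 23156247 and 25668307). The group means were 123 ± 2.02 CPM and 97.4 ± 35.2 CPM (SD, n = 2 each), and the log2 fold change of -0.34 had an adjusted p of 0.318 from edgeR with Benjamini-Hochberg adjustment. Without Pim3-/- replicate 1 it was -0.78 with an adjusted p of 9.8e-07, and without replicate 2 it was -0.03 with an adjusted p of 0.885, and these are the lowest and the highest adjusted p over all 10 alternatives. Both of these fits take their spread from the WT pair alone and assume that the lone Pim3-/- library varies like it.

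Dppa3 (ENSMUSG00000046323, chromosome 6, 122626410 to 122630272, plus strand) was the rarest of the 4 transcripts and had the largest fold change among them. It had 318 and 306 counts in WT ESCs, 115 in Pim3-/- replicate 1 and 31 in Pim3-/- replicate 2. In CPM this was 16.6 and 13.5 against 4.30 and 1.20, with group means of 15.0 ± 2.18 and 2.75 ± 2.19 CPM (SD, n = 2 each). Both clones were below both WT libraries, and the clones also differed from each other beyond counting error, with 95% Poisson intervals of 3.55 to 5.17 CPM and 0.816 to 1.71 CPM. Such intervals cover counting error only. The log2 fold change was -2.44 (standard error 0.51), with an adjusted p of 0.0121 from edgeR with Benjamini-Hochberg adjustment.

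The call for Dppa3 held in all 10 alternative settings, with adjusted p-values from 7.2e-35 to 0.0413. Its size depended on the clone. Without Pim3-/- replicate 1 Dppa3 was 12.6-fold lower than in WT ESCs, and without replicate 2 it was 3.53-fold lower. In bulk RNA, fewer cells with the transcript and less transcript per cell cannot be told apart, which holds for every level given here.

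Dppa5a (ENSMUSG00000060461, chromosome 9, 78367052 to 78368177, minus strand) was by far the most abundant of the 4, with 84301 and 79928 counts in WT ESCs and 55524 and 51019 in Pim3-/- ESCs. Its level was 4397 and 3526 CPM in the WT libraries and 2078 and 1977 CPM in the Pim3-/- libraries. Here the WT libraries were the more variable pair (3961 ± 616 CPM, SD, n = 2), the clones were nearly alike (2027 ± 71.4 CPM, SD, n = 2), and the groups did not overlap. The log2 fold change was -0.97 (standard error 0.24), with an adjusted p of 0.0200 from edgeR with Benjamini-Hochberg adjustment. This call was the least firm of the downregulated genes, since 6 of 10 alternatives kept it, with adjusted p-values from 4.5e-05 to 0.196. It missed the threshold with library totals (-0.51, adjusted p = 0.0715), with the replicate number as a block (-0.96, adjusted p = 0.0656), without WT replicate 1 (-0.85, adjusted p = 0.196) and without WT replicate 2 (-1.20, adjusted p = 0.0708).

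**Figure D1:**
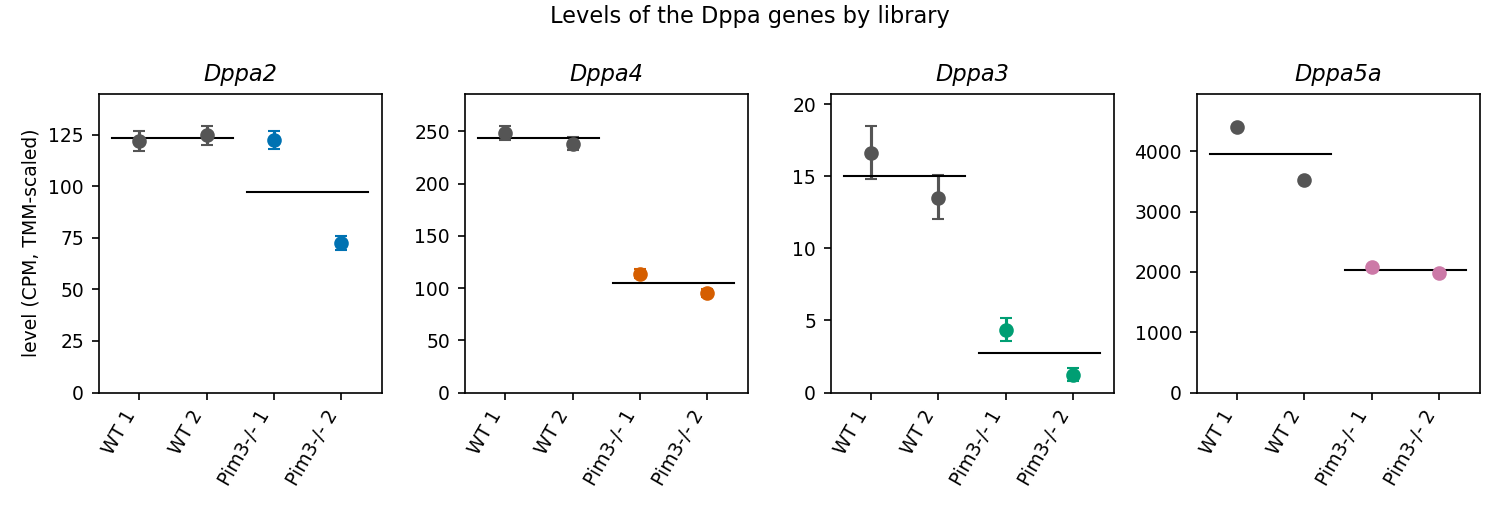
Level of each Dppa gene (vertical axis, TMM-scaled CPM, starting at 0) in the 4 libraries (horizontal axis), where points are libraries, bars are 95% Poisson intervals of the counts and lines are group means. For Dppa4, Dppa3 and Dppa5a both Pim3-/- libraries lie below both WT libraries, whereas for Dppa2 Pim3-/- replicate 1, at 122 CPM, lies level with the WT libraries and replicate 2 lies at 72.5 CPM. By library totals, Pim3-/- replicate 1 was above both WT libraries for Dppa2.

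**Figure D2:**
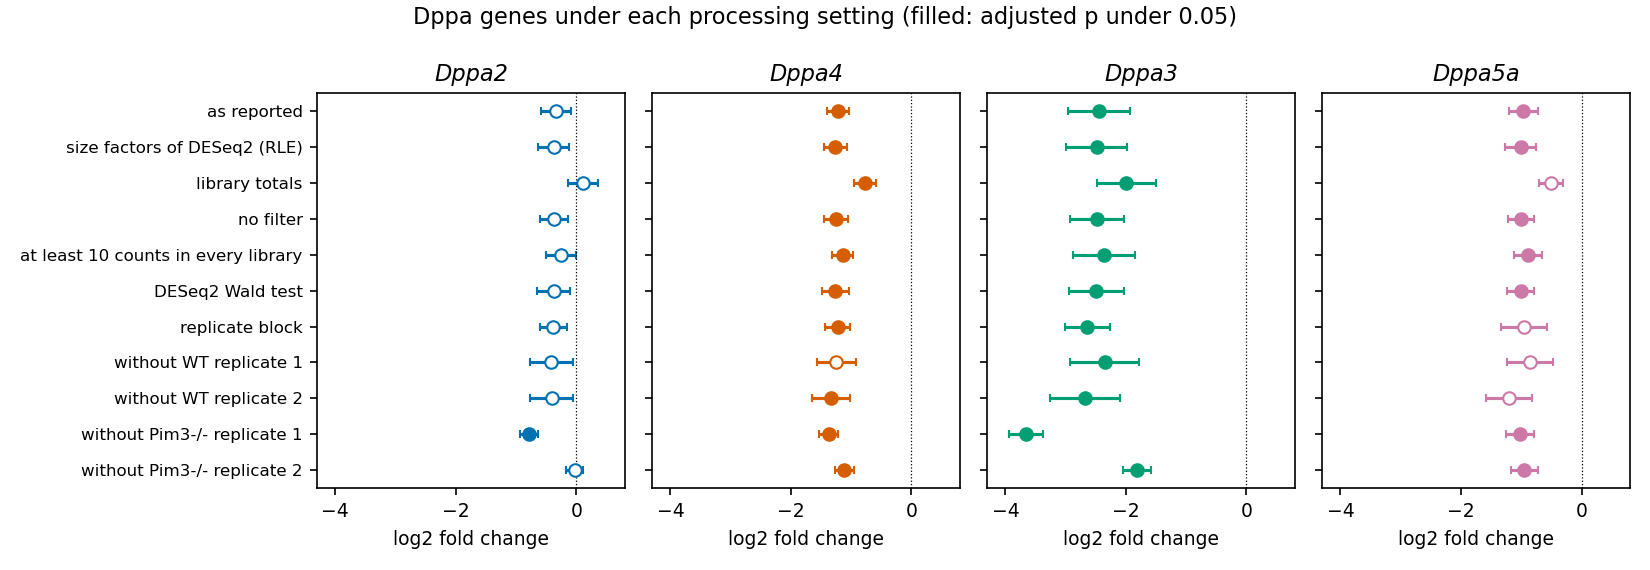
Log2 fold change of each Dppa gene (horizontal axis, bars are standard errors) under each processing setting (vertical axis), with filled points at an adjusted p under 0.05. Dppa3 is filled in every row, Dppa4 in all but the row without WT replicate 1, Dppa5a is open in 4 alternatives, and Dppa2 is filled without Pim3-/- replicate 1 alone and lies at 0.11 with library totals.

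The clones differed unequally over the 4 genes. Pim3-/- replicate 1 exceeded replicate 2 by 3.58-fold for Dppa3, 1.69-fold for Dppa2, 1.20-fold for Dppa4 and 1.05-fold for Dppa5a. Among the 18444 tested genes, 1.59% had a larger difference between the clones than Dppa3 and 13.2% a larger one than Dppa2, against 57.4% for Dppa4 and 87.4% for Dppa5a (log2 of CPM plus 0.5). WT replicate 1 against replicate 2 gave 1.23-fold for Dppa3, 0.977-fold for Dppa2, 1.04-fold for Dppa4 and 1.25-fold for Dppa5a.

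Per kilobase of annotated exons, the order of the 4 genes in WT ESCs was Dppa5a, Dppa4, Dppa2 and Dppa3. Their levels were 6399 ± 995, 146 ± 4.31, 50.4 ± 0.827 and 16.9 ± 2.45 CPM per kilobase (SD, n = 2 each), and no neighbours in this order overlapped. Dppa5a ranked 8 among 18392 tested genes with a length, Dppa4 520, Dppa2 1448 and Dppa3 3620. In Pim3-/- ESCs the order was the same, at 3275 ± 115, 62.9 ± 8.04, 39.8 ± 14.4 and 3.09 ± 2.46 CPM per kilobase (SD, n = 2 each). Dppa4 and Dppa2 were closer together there but did not overlap, with 68.5 and 57.2 CPM per kilobase for Dppa4 and 49.98 and 29.6 for Dppa2.

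Ratios of counts within a library need no scaling between libraries. The ratio of Dppa2 to Dppa4 was 0.490 and 0.523 in WT ESCs and 1.07 and 0.763 in Pim3-/- ESCs. The WT libraries were alike, Pim3-/- replicate 2 was above them and replicate 1 was highest. The mean log2 ratio was higher by 0.84, from -0.98 ± 0.07 to -0.14 ± 0.35 (SD, n = 2 each), a 1.79-fold shift. The ratio of Dppa4 to Dppa3 was 15.0 and 17.6 in WT ESCs and 26.5 and 79.1 in Pim3-/- ESCs, a shift of 1.49 on the log2 scale.

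Dppa4 and Dppa5a moved most alike of the 6 pairs. Their ratio was 0.0565 and 0.0676 in WT ESCs and 0.0548 and 0.0481 in Pim3-/- ESCs, a log2 shift of -0.27. The log2 ratios were -4.15 and -3.89 in the WT libraries (SD 0.18) and -4.19 and -4.38 in the Pim3-/- libraries. The ratio of Dppa3 to Dppa5a was lower in both clones, at 0.00207 and 6.1e-04 against 0.00377 and 0.00383 in WT ESCs, a log2 shift of -1.76. The shift of Dppa2 relative to Dppa3 was 2.33 and relative to Dppa5a 0.57. The groups did not overlap for any of the 6 ratios, which come from 4 genes and are not independent. The share of all gene pairs without overlap was not computed. A two-sided exact permutation test over the 4 libraries gave p = 0.333 for each ratio, also after Benjamini-Hochberg adjustment. This is the smallest value the design allows.

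**Figure D3:**
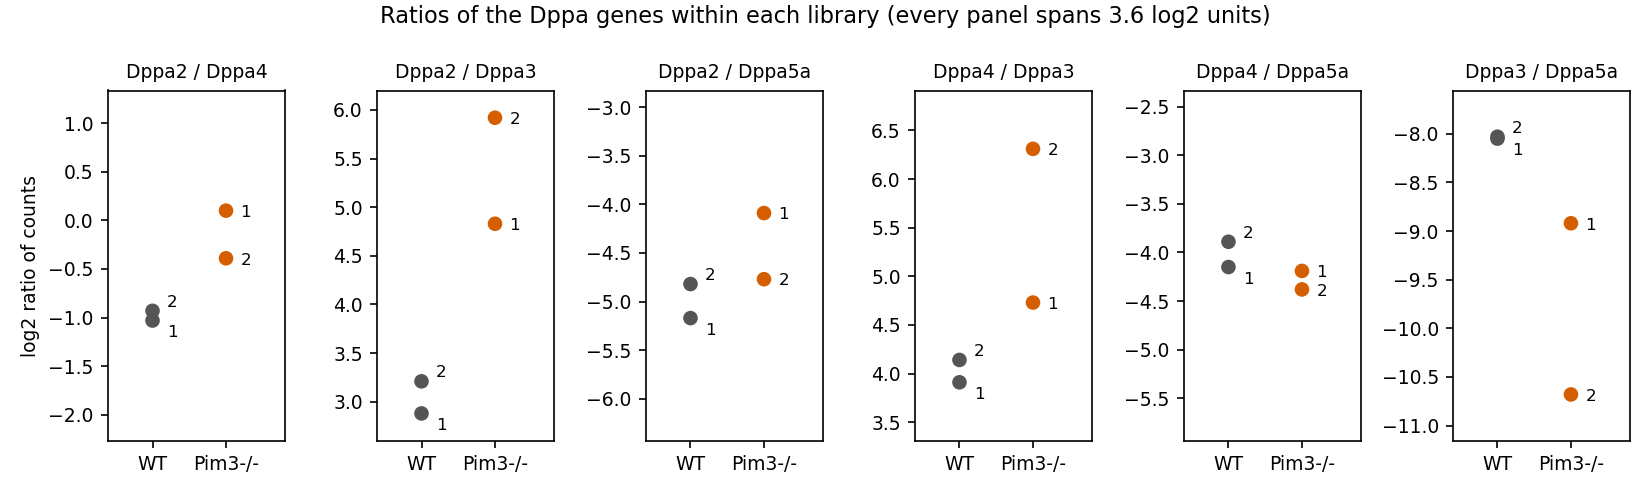
Log2 ratio of counts (vertical axis) for the 6 pairs of Dppa genes in WT and Pim3-/- libraries (horizontal axis, points numbered by replicate), with 3.6 log2 units in every panel. The ratio of Dppa4 to Dppa5a moved least, by -0.27, and every ratio with Dppa3 moved by more than 1 log2 unit, with Pim3-/- replicate 2 farther from WT than replicate 1.

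Set against Pou5f1 (Oct4), the core pluripotency factor, Dppa4 and Dppa5a also changed least in proportion. Pou5f1 had 9.47 and 8.96 counts per count of Dppa4 in WT ESCs and 9.68 and 10.1 in Pim3-/- ESCs, a log2 shift of 0.10. Relative to Dppa5a the shift was -0.17, relative to Dppa2 it was -0.74, and relative to Dppa3 it was 1.59. Pou5f1 itself was downregulated, with a log2 fold change of -1.12 and an adjusted p of 0.00993 from edgeR with Benjamini-Hochberg adjustment. Counts of Dppa3 per count of Pou5f1 were thus lower in both clones than in WT ESCs, and those of Dppa2 were higher.

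The change of a gene in these libraries went along with its level, and the Dppa genes occupy different levels. Of 6161 tested genes with a mean of 1 to 10 CPM, 5.58% were downregulated and the median log2 fold change was 0.39. Of 1736 genes at 100 to 1000 CPM, 45.6% were downregulated with a median of -0.55, and of 134 genes at 1000 CPM or more, 65.7% were downregulated with a median of -0.86. Dppa3, in the lowest of these bands, was below nearly all genes of its level, since 0.227% of them had a lower log2 fold change. Dppa4 was in the lower part of its band, with 11.1% of genes below it, and Dppa2, in the same band, was above its median, with 62.4% below it. Dppa5a was between the quartiles of its band (-1.03 and -0.49), with 32.8% of genes below it. What part the dependence on level has in the fold changes of Dppa4 and Dppa5a was not tested.

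**Figure D4:**
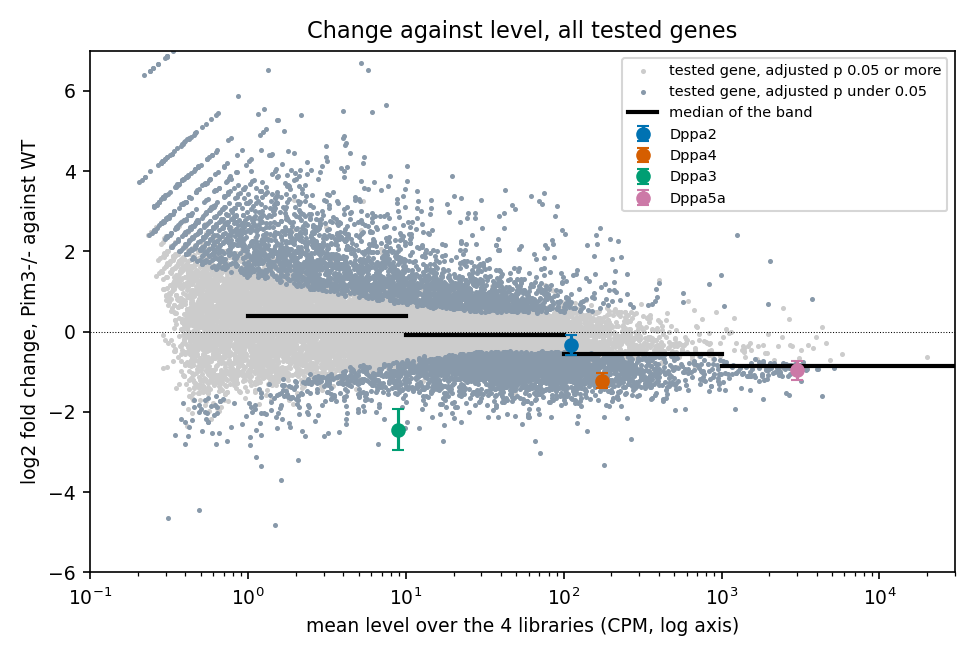
Log2 fold change of Pim3-/- against WT ESCs (vertical axis) by mean level over the 4 libraries (horizontal axis, CPM, log scale) for 18444 tested genes, 5 of which lie outside the plotted range, with band medians as black lines and standard errors on the Dppa genes. Dppa5a sits close to the median of genes at 1000 CPM or more (-0.86), Dppa4 below and Dppa2 above the median of genes at 100 to 1000 CPM (-0.55), and Dppa3 far below that of genes at 1 to 10 CPM (0.39). Dppa2 changes sign with library totals, at 0.11.

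Downstream of DPPA2 and DPPA4 stand Dux and the 2C genes. Of 23 tested genes of this list, 19 were upregulated and 0 downregulated by edgeR (22 and 0 at an unadjusted p under 0.05, 17 and 0 by DESeq2), with a median log2 fold change of 2.47 against 0.07 for all genes. Of all tested genes, 17.6% were upregulated. The summed level of the list was 46.6 and 42.7 CPM in WT ESCs and 397 and 138 CPM in Pim3-/- ESCs. The higher of these Pim3-/- values belonged to replicate 1, where Dppa2, Dppa4, Dppa3 and Dppa5a were each higher than in replicate 2. In replicates 1 and 2, Dppa2 was at 122 and 72.5 CPM and Dppa4 at 114 and 95.01 CPM. Any link between the list and the Dppa genes was not tested. Duxf3, as Dux is named in the table, had 3 and 5 counts in WT ESCs and 81 and 37 in Pim3-/- ESCs, which is 3.52 ± 0.61 (standard error) in log2 fold change. The list had 12 upregulated genes without WT replicate 1 and 11 without WT replicate 2. Zscan4b, Zscan4e and Zscan4f, members of the cluster that marks 2C-like cells, had log2 fold changes of 3.92, 3.87 and 3.63. The split of reads between the near-identical copies of these genes is uncertain.

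Of the repeats linked to DPPA2 and DPPA4, both parts of MuERVL were upregulated, against 3.38% of 828 tested TE subfamilies in this direction. The internal part, MERVL-int, had 1132 and 1584 counts in WT ESCs and 8868 and 6194 in Pim3-/- ESCs, which is 1.89 ± 0.16 (standard error) in log2 fold change. The LTR, MT2_Mm, had 966 and 1118 counts against 6626 and 3467, which is 1.69 ± 0.26 (standard error) in log2 fold change. Without a WT library these calls were lost, with adjusted p-values from 0.240 to 0.391 by edgeR with Benjamini-Hochberg adjustment.

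Of 6 young LINE-1 subfamilies, 1 was upregulated with TMM factors of the TE table. L1Md_A had 1464 and 1604 counts in WT ESCs against 3760 and 3772, for a log2 fold change of 0.69 ± 0.09 (standard error) at an adjusted p of 0.00286 (edgeR, Benjamini-Hochberg). It lost its call without WT replicate 1 (0.81, adjusted p = 0.289) and without WT replicate 2 (0.58, adjusted p = 0.240). The other 5 subfamilies did not pass the test, with log2 fold changes of 0.68 for L1Md_Gf, 0.26 for L1Md_F3, 0.12 for L1Md_T, -0.02 for L1Md_F2 and -0.35 for L1Md_F. When TEs were scaled by the gene table, 4 of the 6 were upregulated, with log2 fold changes of 0.96 for L1Md_A, 0.94 for L1Md_Gf, 0.53 for L1Md_F3 and 0.40 for L1Md_T, and L1Md_F2 changed sign, to 0.26, without passing the test.

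A list of 20 genes whose products are known to act on Dux, on the 2C-like state or on DPPA2, among them the SUMO pathway that modifies DPPA2, held 8 downregulated and 0 upregulated genes by edgeR (9 and 1 at an unadjusted p under 0.05, 9 and 0 by DESeq2), with a median of -0.28. With library totals, 2 were downregulated and 4 upregulated. With TMM factors, 16.2% of all tested genes were downregulated, and 45.6% of those at 100 to 1000 CPM. Sumo2, Sumo3, Sae1, Uba2, Trp53 and Ehmt2 lie in that band. Sumo2 and Sumo3, which encode SUMO proteins, fell, with log2 fold changes of -1.21 and -1.08 and adjusted p-values of 0.00562 and 0.0122 (edgeR, Benjamini-Hochberg). The subunits of the SUMO-activating enzyme, Sae1 and Uba2, were at -0.77 and -0.67. Pias4, the SUMO ligase known to act on DPPA2, did not pass the test, at -0.11 (adjusted p = 0.630, edgeR, Benjamini-Hochberg), and was at 0.34 with library totals. Chaf1b, of the histone chaperone CAF-1, was at -0.92, Trp53 at -0.75 and Ehmt2 (G9a, a histone H3K9 methyltransferase) at -0.67. The list had 1 downregulated gene without WT replicate 1 and 2 without WT replicate 2.

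DPPA3 is tied to DNA methylation, and of 12 tested genes of that machinery 1 was upregulated and 2 were downregulated. Of all tested genes, the shares were 17.6% and 16.2%. The median of the list was -0.20. With library totals 3 were upregulated and 1 was downregulated. Tet3, the dioxygenase from which DPPA3 shields the maternal genome, had 36 and 34 counts in WT ESCs and 168 and 162 in Pim3-/- ESCs, for a log2 fold change of 1.90 ± 0.31 (standard error) at an adjusted p of 0.00636 (edgeR, Benjamini-Hochberg). Dnmt3b, a de novo methyltransferase, fell by 1.30 on the log2 scale with the same adjusted p. Xpo1, the export receptor that carries proteins out of the nucleus, was at -0.64 (-0.19 and not called with library totals). Uhrf1, named after its values were seen because it is the partner of DPPA3, was at -0.32 (0.12 with library totals) and did not pass the test. Without either WT library Tet3 was no longer called and 1 gene was downregulated. Without Pim3-/- replicate 1 and 2, 6 and 5 genes of this list were downregulated, and DESeq2 called 5.

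Dppa3 is also a classical marker of primordial germ cells, and the other germ cell markers moved in both directions. Of 12 tested markers, 4 were upregulated and 3 downregulated, against 17.6% and 16.2% of all tested genes. The median of the markers was -0.09. The interferon-induced membrane protein genes Ifitm3 and Ifitm1 had the largest falls. Ifitm3 had 2597 and 2642 counts in WT ESCs and 558 and 260 in Pim3-/- ESCs, or -3.02 in log2 fold change, and as with Dppa3 replicate 2 was the lower clone. Ifitm1 was at -2.67 and Dnd1, which encodes an RNA-binding protein of germ cells, at -0.88. Mael, of the piRNA pathway, had 288 and 315 counts against 975 and 1484, a log2 fold change of 1.70, and Dazl, Kit and Ddx4 were at 0.95, 0.81 and 0.73. With each WT library left out, 1 marker was upregulated and 2 were downregulated, and without Pim3-/- replicate 2 it was 4 and 6.

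The tested relatives of Dppa5a, Ooep and Khdc3, were downregulated. Of genes at 100 to 1000 CPM, where Ooep lies, 45.6% were downregulated. Of those at 10 to 100 CPM, where Khdc3 lies, 22.1% were. Ooep, a KH-domain gene of the oocyte's subcortical complex that starts 10.5 kb from Dppa5a, had 4027 and 3721 counts in WT ESCs and 1879 and 1848 in Pim3-/- ESCs, with -1.40 as log2 fold change and 0.00457 as adjusted p (edgeR, Benjamini-Hochberg). Khdc3, which encodes another protein of that complex, had 1362 and 1461 counts against 708 and 726, a log2 fold change of -1.31 and an adjusted p of 0.00393 in the same test. Both genes kept their call whichever single library was left out. Khdc1a, Khdc1b and Khdc1c had 0 counts in every library.

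Among genes with a SAP domain like DPPA2 and DPPA4, 5 were tested, and 1 was upregulated and 2 were downregulated. Of all tested genes, the shares were 17.6% and 16.2%. The median of the 5 SAP genes was 0.13. With library totals 3 were upregulated and 0 downregulated by edgeR, which was also the count at an unadjusted p under 0.05, and Safb and Acin1 were at 0.57 and 0.80. Hnrnpu, a nuclear matrix protein that binds RNA, was at -0.73 and Sltm at -0.57, while Safb2 was at 0.49, just inside the threshold with an adjusted p of 0.0498 (edgeR, Benjamini-Hochberg) and outside it with DESeq2 (0.0999) and with the replicate block (0.0564). Acin1 and Safb did not pass the test, at 0.35 and 0.13, and Safb turned to -0.01 without WT replicate 1. Without either WT library these calls were lost.

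The other rows with the name Dppa were Dppa5b, Dppa5c, Dppa1 and Dppa3-ps. Dppa5b and Dppa5c are annotated as unprocessed pseudogenes near Dppa5a on chromosome 9, from 78245550 to 78246135 and from 78271998 to 78272583. They had 94 and 168 against 72 and 67 counts and 218 and 175 against 111 and 72 counts in WT and Pim3-/- ESCs. Both were downregulated, with log2 fold changes of -1.22 ± 0.32 and -1.45 ± 0.33 (standard errors) and with 0.0249 and 0.0150 as adjusted p (edgeR, Benjamini-Hochberg). All 50-base words of their annotated transcripts are shared between the pseudogenes and 19.1% are shared with Dppa5a, so these values cannot be separated from one another or wholly from reads of Dppa5a. Dppa1 and Dppa3-ps, a processed pseudogene of Dppa3 on the X chromosome, had 0 counts in every library.

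Reads that could stem from copies elsewhere touch each of the 4 genes. Of the 50-base words in their transcripts, 29.1% for Dppa2, 31.3% for Dppa4, 16.5% for Dppa3 and 38.6% for Dppa5a occur in another annotated gene. These other genes are mostly pseudogenes with 0 to 15 counts per library. The exceptions are Dppa5b, Dppa5c and Pigp, which holds 12.3% of the words of Dppa5a and had 308, 290, 321 and 365 counts, a log2 fold change of -0.14 (0.31 with library totals). How the counting treated reads with several locations is not given in the sources used here.

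The neighbours of the Dppa genes on their chromosomes did not all move with them. Dppa2 and Dppa4 lie on the same strand with 9671 bases between them, and the only other tested gene within 200 kb of them was Morc1, which encodes a protein that silences transposons in male germ cells. Morc1 had 4037 and 4326 counts in WT ESCs and 1182 and 1737 in Pim3-/- ESCs, for a log2 fold change of -1.85 ± 0.23 (standard error) at an adjusted p of 0.00395 (edgeR, Benjamini-Hochberg). Both clones were below WT at Dppa4 and Morc1, which lie on either side of Dppa2. In Pim3-/- replicate 1, Dppa2 itself was at the WT level after TMM scaling and above it by library totals.

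Dppa3 lies in a cluster with Nanog, Gdf3 and Slc2a3. Within 200 kb of it 11 genes were tested, and 2 were upregulated and 1 downregulated, against 17.6% and 16.2% of all tested genes. Nanog, the pluripotency factor 81.1 kb from Dppa3, was at -0.90 (adjusted p = 0.0155, edgeR, Benjamini-Hochberg) and, with library totals, at -0.45 and not called. The next neighbours of Dppa3, Gdf3 (a TGF-beta family ligand) and Apobec1 (a cytidine deaminase), were at -0.63 and -0.61 and did not pass the test, with adjusted p-values of 0.0528 and 0.0993 in the same fit. On the far side of Nanog, Slc2a3, a glucose transporter gene, had 16750 and 21547 counts in WT ESCs and 72666 and 90643 in Pim3-/- ESCs, or 1.77 in log2 fold change, and Foxj2 was at 1.13. The fold change of Dppa3 was lower than that of every tested neighbour.

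Around Dppa5a, 16 genes were tested, of which 7 were downregulated and 2 upregulated, against 16.2% and 17.6% of all tested genes. The 7 include Dppa5b and Dppa5c, whose values cannot be separated from one another or wholly from Dppa5a. Besides Ooep and the pseudogenes, Gsta4, a glutathione transferase gene, was at -1.28, the small nuclear RNA gene Rn7sk at -1.39, Mto1, which acts on mitochondrial tRNAs, at -0.80 and Gm26377 at -0.84. Of genes at 100 to 1000 CPM, where Ooep and Gsta4 lie, 45.6% were downregulated. Of those at 1000 CPM or more, where Gm26377 lies, 65.7% were. Gm26377, annotated as a miRNA gene, lies within Eef1a1 on the same strand, so its reads cannot be told apart from those of Eef1a1, which encodes a translation elongation factor and did not pass the test at -0.62. Mto1 (-0.35) and Dppa5b (-0.78) were not called with library totals. Ick and the pseudogene Gm8093 were at 0.69 and 1.71.

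**Figure D5:**
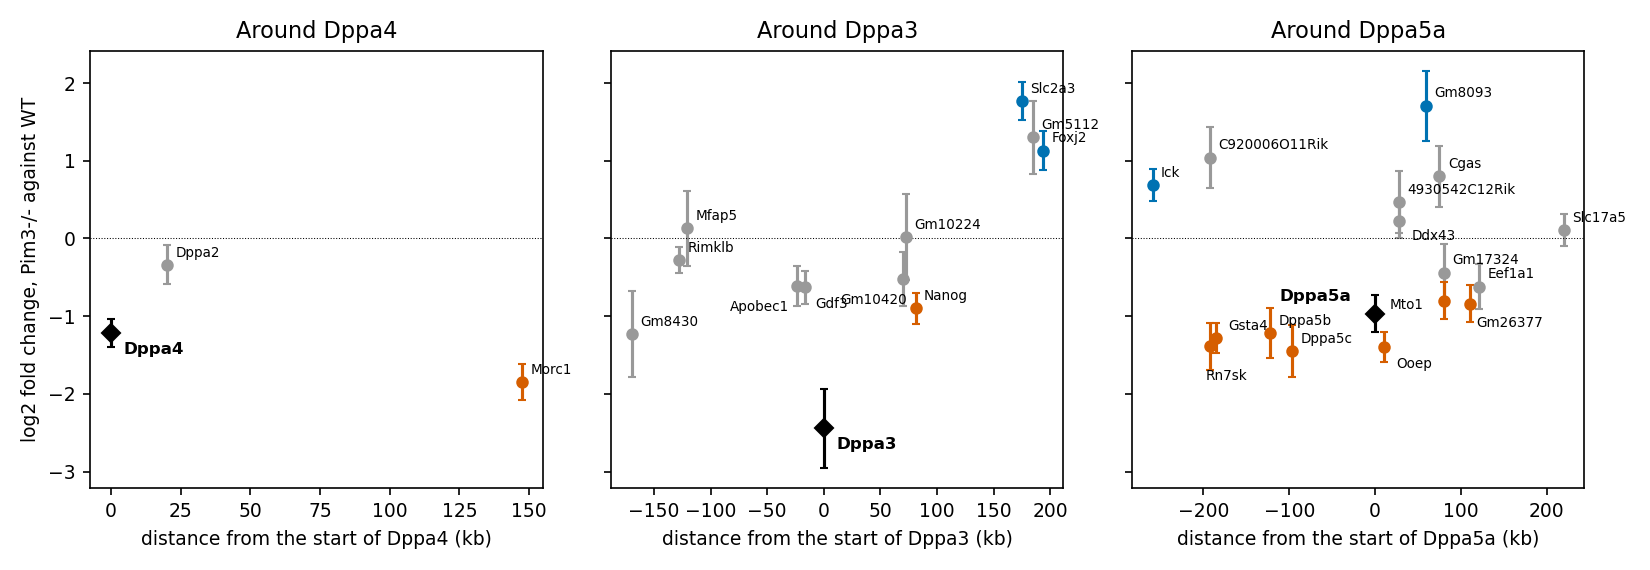
Log2 fold change of Pim3-/- against WT ESCs (vertical axis, bars are standard errors) of tested genes whose body lies within 200 kb of Dppa4, Dppa3 or Dppa5a (black diamonds), by distance between gene starts (horizontal axis, kb, positive toward higher coordinates), with downregulated genes in orange, upregulated genes in blue and others in grey. Dppa2 (-0.34, or 0.11 with library totals) stands between Dppa4 (-1.22) and Morc1 (-1.85), and Dppa3 (-2.44) lies below all its neighbours.

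Genes with the closest pattern to each Dppa gene over the 4 libraries were found among 9655 genes (9656 for Dppa3) with a mean of at least 10 CPM, by the root mean square difference of log2 CPM plus 0.5 centred on each gene. Psmd13, a proteasome subunit gene, Gid8 and Sumo2 were closest to Dppa4, at distances of 0.018, 0.024 and 0.025. Gars, Npl and Des were closest to Dppa2, at 0.025, 0.027 and 0.027, and like Dppa2 they did not pass the test and had log2 fold changes above 0 with library totals (0.11, 0.11 and 0.05). Cox16, Sem1 and Ssr2 were closest to Dppa5a, at 0.020, 0.021 and 0.028. For Dppa3, whose mean was below 10 CPM, genes of its own level were left out of the search.

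Psmb10, which encodes a catalytic subunit of the immunoproteasome, was closest to Dppa3 at a distance of 0.105, with 1989 and 1717 counts in WT ESCs and 689 and 271 in Pim3-/- ESCs. Gtsf1l and Pnp2 followed at 0.297 and 0.307. Among the Dppa genes themselves, Dppa4 and Dppa5a were closest, at 0.174, and Dppa2 and Dppa3 farthest apart, at 1.06. With 4 libraries, many genes can share a pattern, and these distances are a description.

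Pluripotency genes moved in both directions beside the Dppa genes. Of all tested genes, 16.2% were downregulated and 17.6% upregulated. At 100 to 1000 CPM, where most genes of this list lie, the shares were 45.6% and 4.26%. Of 20 pluripotency genes tested, 6 were downregulated and 3 upregulated, with a median of -0.05. The largest changes were those of Tdh, the threonine dehydrogenase of mouse ESCs, at -1.66, Tbx3 at 1.51, Klf4 at 1.44 and Pou5f1 at -1.12. With library totals 2 were downregulated and 7 upregulated, while without WT replicate 1 there was 1 downregulated gene, without WT replicate 2 there were 1 and 2, and without Pim3-/- replicate 1 there were 8 and 6.

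Markers of primitive endoderm, the extraembryonic lineage that ESCs can form, were higher in the Pim3-/- libraries. Of 12 markers 11 were tested, and these 11 were upregulated, with a median of 3.16 and a summed level of 50.1 and 62.8 CPM in WT ESCs against 336 and 327 CPM in Pim3-/- ESCs. Of all tested genes, 17.6% were upregulated. Sox7 had 3 and 0 counts in WT ESCs and 91 and 67 in Pim3-/- ESCs, and Foxa2, which was not tested, 0 and 0 against 5 and 7. Col4a2 and Gata6 had log2 fold changes of 3.29 and 3.22. The list kept 7 calls without WT replicate 1 and 9 without WT replicate 2. Single markers differed between the clones, with 85 and 10 counts of Sox17, 189 and 46 of Dab2 and 240 and 112 of Gata6 in Pim3-/- replicates 1 and 2, while Lama1, Col4a1 and Col4a2 took most of the sum and had 2797 and 2620, 3405 and 3474 and 1460 and 1401. Dab2, Lama1 and Col4a1 were chosen after their values were seen. The part of cells with these markers in the fall of the Dppa genes was not tested.

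Some markers of other cell types were also called, beside 17.6% upregulated and 16.2% downregulated among all tested genes. Of 6 tested mesoderm markers 1 (Eomes) was upregulated, with a summed level of 7.81 to 9.07 CPM in WT and 17.3 to 28.2 CPM in Pim3-/- ESCs. Of 5 tested neuroectoderm markers 1 was upregulated and 1 downregulated, with sums of 129 to 138 and 76.9 to 97.3 CPM. Of 3 fibroblast markers, Pdgfrb was upregulated, with sums of 27.6 to 28.2 and 44.9 to 49.1 CPM, and the fibroblast genes Dcn and Col3a1 had at most 1 count in any library. Of 6 trophoblast markers, Eomes and Ascl2 were upregulated, with sums of 84.9 to 88.2 and 97.1 to 98.2 CPM, and Tpbpa had 0 counts. With library totals, 2 mesoderm, 3 neuroectoderm, 2 fibroblast and 3 trophoblast markers were upregulated and 0 of these lists downregulated by edgeR, also at an unadjusted p under 0.05. Their part in the result was not tested either.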

How the data were processed

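The authors deposited raw counts of genes and of TE subfamilies, which were used as they stand for 2 WT and 2 Pim3-/- libraries of mRNA. The methods of the study name Cutadapt, Hisat2, mm10, Ensembl genes and RepeatMasker TEs, while the submitters' processing notes name Trim Galore, STAR, featureCounts and GRCm38. Which of these made the counts, the strand setting and the treatment of reads with several locations are not given in the sources used here.

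Low counts were left out with filterByExpr (minimum count 10, minimum total 15). Counts were scaled by TMM and the groups compared with the quasi-likelihood test of edgeR 4.0.16 in R 4.3.3, with Benjamini-Hochberg adjustment over all tested genes, or over all tested TEs within the TE table. The Wald test of DESeq2 1.42.0, other scalings and filters, a replicate block and the omission of each library were alternatives. Python 3.11.15, scipy 1.17.1 and matplotlib 3.10.9 served for intervals and figures. The method was tested on simulated data. Coordinates, exon lengths and transcripts are from GENCODE M21 for GRCm38. Levels between genes were compared per kilobase of the union of exons, which does not account for the isoforms in use.

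The Dppa genes, the gene lists and the tests were chosen with earlier results of these data known, so no list is independent evidence. Genes are named if they bear the name Dppa, are among the up to 4 largest changes of a list that passed the test (or belong to a list of 8 or fewer), lie within 200 kb of a Dppa gene, or are among the 3 closest in pattern. The check of shared replicate numbers correlated the deviations from the group means over 18444 genes and gave r = 0.0196, so the numbers were not taken as pairs.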

Additional observations from a re-analysis of the deposited data

How the results depend on the processing

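Dppa3 kept its direction and its call under all 10 alternatives, with log2 fold changes from -3.66 to -1.82. Dppa4 missed the threshold once, without WT replicate 1 (-1.24). Its log2 fold change was weakest with library totals (-0.77) and ranged from -1.38 to -1.11 as single libraries were left out. Dppa5a lost its call with library totals (-0.51) and without either WT library, and ranged from -1.20 to -0.85 over the omissions. Dppa2 changed sign with library totals (0.11) and ranged from -0.78 to -0.03 over the omissions. Library totals shifted the median of all genes by 0.45 on the log2 scale, and relative to that median Dppa2, Dppa4, Dppa3 and Dppa5a were at -0.41, -1.29, -2.51 and -1.03 both with library totals and with TMM factors.

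With the replicate number as a block, Dppa5a was at -0.96 and lost its call, the calls of the other Dppa genes did not change, and 3403 genes were upregulated and 3272 downregulated, against 3246 and 2987 without the block. The numbers do not pair the libraries (r = 0.0196). Library totals gave 6594 upregulated and 1094 downregulated genes, so that 85.8% of calls were upregulated against 52.1% with TMM factors. Omitting single libraries gave 402 to 5393 upregulated and 373 to 5255 downregulated genes, with 35.5% of calls upregulated without WT replicate 2. The low counts came without a WT library, when the spread rests on the Pim3-/- pair, and the high counts without a Pim3-/- library, when it rests on the WT pair.

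Over the omissions MERVL-int ranged from 1.57 to 2.15 and MT2_Mm from 1.10 to 2.09, and both lost their call without either WT library. L1Md_F2 turned positive when scaled by the gene table (0.26), and over the omissions it ranged from -0.12 to 0.10, with 0.07 without Pim3-/- replicate 1. Library totals also turned Pim3 (0.19), Pias4 (0.34), Uhrf1 (0.12), Gars (0.11), Npl (0.11), Des (0.05) and Pigp (0.31), and Safb, with a range of -0.02 to 0.23 over the omissions, turned without WT replicate 1 (-0.01) and without Pim3-/- replicate 1 (-0.02). With the length of the longest transcript, the WT level of Dppa4 was 165 CPM per kilobase. Of 58 called genes followed beside the Dppa genes, 19 lost their call with library totals, 40 without WT replicate 1 and 28 without WT replicate 2. The causes of these changes were not tested. Among Dppa2, Dppa4, Dppa3 and Dppa5a the smallest count was 31, for Dppa3 in Pim3-/- replicate 2. The size of the fall of Dppa3 depended on the clone, at -3.66 without Pim3-/- replicate 1 and -1.82 without replicate 2, and its direction did not.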
